A study of Mus musculus with 6 samples.

Results

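The 10 genes described here, Csf1r, Cx3cr1, C1qa, C1qb, C1qc, Lyz2, Mrc1, Cd163, Lyve1 and Cd209f, mark tissue macrophages, and they were taken by name from the 14865 genes listed for the cochlear duct of the mouse. They fall into 6 general macrophage genes (Csf1r, Cx3cr1, C1qa, C1qb, C1qc and Lyz2) and 4 genes of the perivascular type (Mrc1, Cd163, Lyve1 and Cd209f). They were chosen with their level in each library and their difference between the genotypes on the log2(value + 1) scale already known. Both are therefore given as descriptions, and nothing is read from tests of these 10 genes. RNA from whole cochlear ducts of C57BL/6 mice at P8 was sequenced after poly(A) selection in 6 libraries, 3 of Gfi1+/+ and 3 of Gfi1cre/+ mice. Mice of the second genotype carry Cre recombinase in place of 1 copy of the Gfi1 coding sequence, a zinc finger repressor of hair cells and blood cells, and the Cre is driven by the Gfi1 promoter. No other allele or treatment is given for any group. Each Gfi1+/+ library held 2 cochleae of 1 mouse, whereas each Gfi1cre/+ library pooled 6 cochleae of 3 mice. The values, called normalized reads, are the reads counted on each gene, scaled by 1 size factor for each library.

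Macrophages of the inner ear lie in the spiral ligament, in the spiral ganglion and along the vessels of the stria vascularis. They need signals through the receptor CSF1R to survive, they read the neuronal chemokine fractalkine through CX3CR1, and they make much of the complement component C1q, which tags debris and synapses for uptake. Macrophages along vessels and in connective tissue are known for endocytic receptors, among them the mannose receptor MRC1, the haemoglobin scavenger receptor CD163, the hyaluronan receptor LYVE1 and lectins of the CD209 family.

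The libraries held between 13603908 and 19359753 reads counted on genes, and a count of 3 reads, the limit that a count of 0 allows, corresponded to between 2.61 and 3.70 normalized reads. Such limits and the counting errors given below cover counting error only. Gfi1+/+ replicate 1 stood apart from the other libraries, with a score of -44.0 on the principal component with the most variance (54.3%), on which the other 5 libraries lay between -0.304 and 16.2. In limma's test on log2(normalized reads + 1) with Benjamini-Hochberg adjustment, 4 of the 14455 genes tested passed an adjusted p of 0.05, and these 4 were the Y-linked genes Ddx3y, Kdm5d, Uty and Eif2s3y. They lay between 116 and 490.0 normalized reads in the Gfi1cre/+ libraries and at 1.23 or less in the Gfi1+/+ libraries, so sex and genotype cannot be told apart in any difference given here. Gfi1 itself had 153 ± 6.72 normalized reads (SD, n = 3) in Gfi1+/+ and 135 ± 4.65 in Gfi1cre/+, a value that includes any exons that the Cre allele keeps.

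All 10 genes were read in every library, and together they took between 0.0441% and 0.0493% of the reads. A further 30 genes common to macrophages were used to check the label, of which 29 were listed and none was at 0 in any library. The summed level of these 29 genes ran from 12256 to 12754 normalized reads in Gfi1+/+ and from 12403 to 13122 in Gfi1cre/+. The most read were Lgmn, a lysosomal protease, Laptm5, a lysosomal membrane protein of blood cells, and Unc93b1, a chaperone of endosomal Toll-like receptors, and many other cell types make Lgmn. Adgre1, which encodes the macrophage antigen F4/80, had between 350.2 and 432 normalized reads, and Cd68, a lysosomal glycoprotein, between 264 and 352.

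Promoter sequences are shown for 5 of the 10 genes because 4 of them, on 3 chromosomes and from both groups, hold the same 7-letter match, and the remaining 1 belongs to the gene whose level separated the genotypes. The RefSeq table of GRCm38.p6 promoters matched 7 of the 10 genes by symbol. The motif AGGAAGT, the core bound by ETS factors such as PU.1, the regulator of macrophage genes, was searched on both strands in the 250 bases before the start that RefSeq gives for the gene. The GENCODE positions given for the genes below begin elsewhere, and the windows shown run into the GENCODE gene by 151 bases for C1qc, 71 for Cd209f, 49 for Lyz2, 22 for Mrc1 and 0 for C1qb. It was found before 4 of the 7 matched genes and in 7.69% of all 32851 promoters of the same length. In each of the 4 it was read as ACTTCCT, on the strand opposite to the gene. It began 211 bases before the RefSeq start of Mrc1, 195 before C1qc, 100 before Lyz2 and 53 before C1qb. In the lines below, which run 5′ to 3′ on the strand of the gene, the capitals mark this match, and in Cd209f they mark TATAAA, which many start sites carry and which began 29 bases before the RefSeq start.
Mrc1, chr2:14229164-14229413, + strand: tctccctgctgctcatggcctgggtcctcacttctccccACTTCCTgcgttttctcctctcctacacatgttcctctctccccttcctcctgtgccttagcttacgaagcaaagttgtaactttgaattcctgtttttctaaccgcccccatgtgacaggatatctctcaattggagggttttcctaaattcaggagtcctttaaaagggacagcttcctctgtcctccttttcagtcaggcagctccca
C1qb, chr4:136886201-136886450, - strand: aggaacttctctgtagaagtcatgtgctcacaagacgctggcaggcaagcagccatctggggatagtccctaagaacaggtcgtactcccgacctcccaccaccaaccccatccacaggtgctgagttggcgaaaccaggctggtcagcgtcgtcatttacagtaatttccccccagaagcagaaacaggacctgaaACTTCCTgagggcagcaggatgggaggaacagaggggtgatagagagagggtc
C1qc, chr4:136892915-136893164, - strand: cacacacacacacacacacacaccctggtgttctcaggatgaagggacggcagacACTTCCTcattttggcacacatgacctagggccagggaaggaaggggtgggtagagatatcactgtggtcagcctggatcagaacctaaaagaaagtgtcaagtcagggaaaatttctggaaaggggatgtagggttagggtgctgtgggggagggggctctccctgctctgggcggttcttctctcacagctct
Lyz2, chr10:117282273-117282522, - strand: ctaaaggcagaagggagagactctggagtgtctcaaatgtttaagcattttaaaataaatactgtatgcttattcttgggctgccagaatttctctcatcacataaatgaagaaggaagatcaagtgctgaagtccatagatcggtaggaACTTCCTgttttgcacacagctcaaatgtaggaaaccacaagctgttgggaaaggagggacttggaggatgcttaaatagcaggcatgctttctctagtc
Cd209f, chr8:4105765-4106014, - strand: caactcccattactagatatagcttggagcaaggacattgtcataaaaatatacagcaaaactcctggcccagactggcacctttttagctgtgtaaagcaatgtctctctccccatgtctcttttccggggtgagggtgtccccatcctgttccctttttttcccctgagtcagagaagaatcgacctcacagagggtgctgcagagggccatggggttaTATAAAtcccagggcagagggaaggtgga

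TATAAA was found in 12.4% of all promoters and before no matched gene other than Cd209f. GAGGAA, a shorter purine-rich sequence that overlaps AGGAAGT in the C1qc promoter, was found before Mrc1, C1qb and C1qc and in 23.3% of all promoters. AATCAC, TTGCNNAA and CACGTG were found before none of the 7 genes, against 9.14%, 9.56% and 6.02% of all promoters. These motifs were chosen after their matches in the 7 genes had been seen. A match is a run of letters and was not tested as a binding site.

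Compared per length, as normalized reads per kb of the longest coding transcript, the C1q genes were the highest of the 10 and 3 of the 4 perivascular-type genes the lowest. C1qc had 892 ± 31.9 normalized reads per kb (SD, n = 6), C1qa 770 ± 51.4 and C1qb 756 ± 51.2. C1qa and C1qb did not differ beyond their spread, since C1qa was above C1qb in 4 of 6 libraries. Csf1r followed with 527 ± 30.1 and Lyz2, lysozyme M, with 468 ± 59.0 normalized reads per kb, and Csf1r was above Lyz2 in 5 of 6 libraries. Mrc1 was the only perivascular-type gene within this range of levels, with 214 ± 24.4 normalized reads per kb, above Cx3cr1 with 148 ± 11.8 in 6 of 6 libraries. Cd209f had 47.7 ± 16.1, Lyve1 22.4 ± 5.74 and Cd163 12.2 ± 1.80 normalized reads per kb, and this order held in 6 of 6 libraries. The place of C1qc depends on the length assumed. Over the union of all annotated exons in place of 1 transcript, an alternative added after the values had been seen, C1qc had 556 normalized reads per kb and stood below C1qa and C1qb, and Csf1r had 429 and stood below Lyz2.

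**Figure D1:**
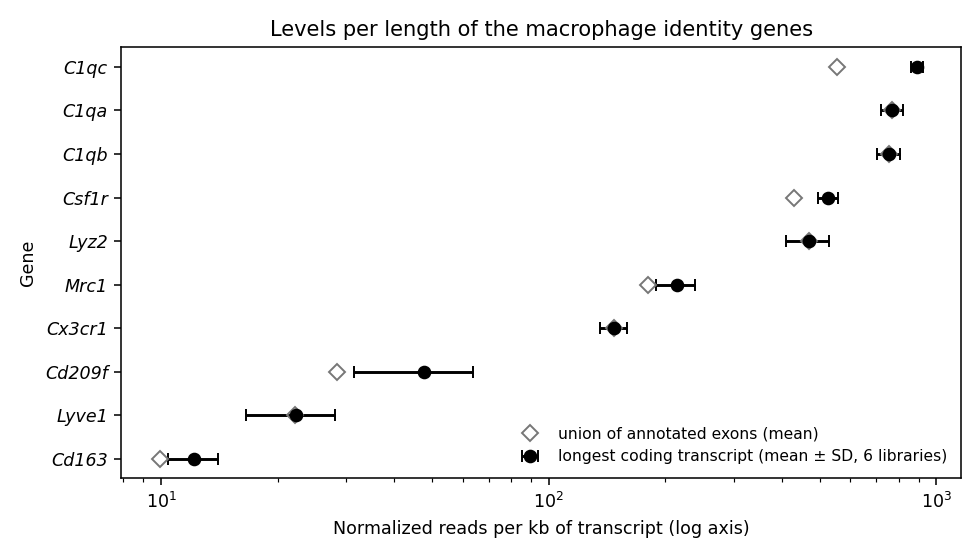
Mean normalized reads per kb (log axis) of each of the 10 macrophage genes over the 6 libraries, with bars for the SD over libraries (filled, longest coding transcript) and the mean over the union of exons (open). The C1q genes lie at 756 to 892 per kb and Cd163 at 12.2, and C1qc moves to 556 with the other length.

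Csf1r (ENSMUSG00000024621, GRCm38 chr18:61100598-61132149, + strand), the receptor for CSF1 and IL34, had 2342, 2698 and 2447 normalized reads in the 3 Gfi1+/+ libraries, given here and below in replicate order. The Gfi1cre/+ libraries had 2313, 2538 and 2516. The ranges overlapped, with the highest value in Gfi1+/+ replicate 2 and the lowest in Gfi1cre/+ replicate 1, and the log2 fold change, Gfi1cre/+ against Gfi1+/+, was -0.02 ± 0.0681 (SE from limma). Exons of Csf1r share 873 bases with Hmgxb3 on the opposite strand, and the strand setting of the counting is not given in the sources used here, so reads of these bases cannot be assigned.

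Cx3cr1 (ENSMUSG00000052336, chr9:119901616-120069879, - strand), the fractalkine receptor, had 611, 673 and 665 normalized reads in the Gfi1+/+ libraries and 593, 716 and 722 in the Gfi1cre/+ libraries. Replicate 1 was the lowest of each genotype, the ranges overlapped, and the log2 fold change was 0.05 ± 0.0872. The ratio of Cx3cr1 to Csf1r stayed between 0.261 and 0.300 over the 6 libraries, and the SD of this ratio on the log2 scale, 0.0798, was close to the 0.0635 that counting of reads alone gives.

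The C1q genes encode the A, B and C chains of one protein and lie side by side within 18675 bases, GRCm38 chr4:136880129-136898803, all on the - strand. C1qa (ENSMUSG00000036887, chr4:136895917-136898803) had 799.9, 887 and 806 normalized reads in Gfi1+/+ and 789, 719 and 803 in Gfi1cre/+. C1qb (ENSMUSG00000036905, chr4:136880129-136886187) had 770.2, 794 and 855 in Gfi1+/+ and 781, 918 and 816 in Gfi1cre/+. C1qc (ENSMUSG00000036896, chr4:136889804-136893065) had 1005, 1087 and 1100.2 in Gfi1+/+ and 1051, 1092 and 1103 in Gfi1cre/+. The genotypes overlapped in all 3 genes, with log2 fold changes of -0.11 ± 0.0694 for C1qa, 0.05 ± 0.0758 for C1qb and 0.02 ± 0.0586 for C1qc. C1qb and C1qc kept their proportion, with an SD of the log2 ratio over libraries of 0.0743 against 0.0673 from counting. C1qa and C1qb kept it less closely, at 0.174 against 0.0720, and C1qa was lowest and C1qb highest in the same library, Gfi1cre/+ replicate 2. C1qc followed Csf1r with an SD of the log2 ratio of 0.0618, against 0.0530 from counting.

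Lyz2 (ENSMUSG00000069516, chr10:117277331-117282321, - strand), a bacteria-lysing enzyme of macrophages and granulocytes, had 515, 527 and 662 normalized reads in Gfi1+/+ and 686, 685 and 623 in Gfi1cre/+. Gfi1+/+ replicates 1 and 2 were below the other 4 libraries, whereas Gfi1+/+ replicate 3 was above Gfi1cre/+ replicate 3, so the ranges overlapped. The log2 fold change was 0.23 ± 0.0998, the highest of the 10 genes, and 0.17 without Gfi1+/+ replicate 1. Lyz1 is a near-identical copy, and the split of reads between the copies is uncertain. Markers of granulocytes, by their mean deviation from the gene mean, moved in the same way over the libraries. Of 19 written, 9 were listed and tested and all 9 had a positive log2 fold change, with a median of 1.16. Without Gfi1+/+ replicate 1, 6 of the 9 were positive and the median was 0.81. Without Gfi1+/+ replicate 3 it was 1.87 and 3 of the 9 passed an adjusted p of 0.05, where 48 of all 14455 genes did. The summed level of the 9 granulocyte genes ran from 1555 to 3516 normalized reads in Gfi1+/+ and from 2811 to 3851 in Gfi1cre/+. Most of this sum was Mmp9, with 1080, 2986 and 1442 in Gfi1+/+ and 1899, 3166 and 2285 in Gfi1cre/+. Unlike Lyz2, Mmp9 was highest in replicate 2 of each genotype. The mean deviation of the 9 genes on the log2 scale was -1.22, -0.92 and 0.39 in Gfi1+/+ and 0.93, 0.33 and 0.49 in Gfi1cre/+. Defining granulocyte genes were low, with Mpo at 53.9 ± 23.2 normalized reads and Ltf at 51.8 ± 19.2 in Gfi1cre/+ and at 9.43 ± 8.41 and 12.8 ± 13.8 in Gfi1+/+. With all 6 libraries, none of the 9 passed an adjusted p of 0.05 with limma or edgeR, and 1, Mpo, did with DESeq2. An unadjusted p under 0.05 with limma was found for 4 (Mpo, Ltf, Ngp and S100a9), where 1.02% of all genes tested were higher with one. The part of granulocyte RNA in the Lyz2 difference was not tested. In bulk tissue, fewer cells of a type and less RNA per cell cannot be told apart.

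**Figure D2:**
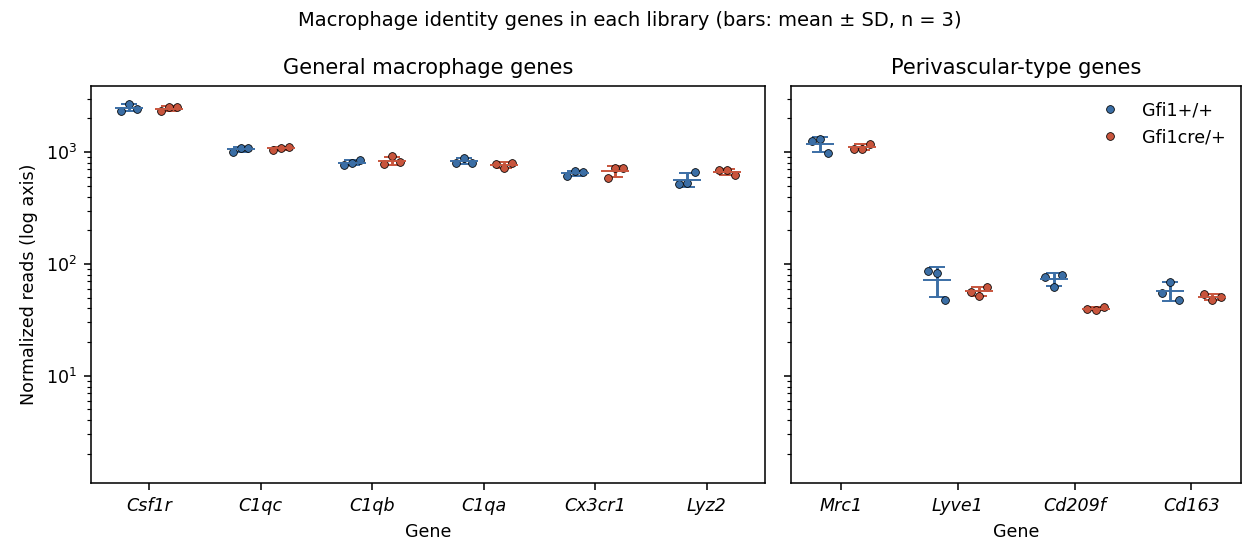
Normalized reads (log axis) of each of the 10 genes in each library, with 1 point per library and bars for the mean ± SD of the 3 libraries of a genotype. The points of the genotypes overlap for every gene but Cd209f, whose Gfi1+/+ libraries lie between 62.8 and 80.2 and whose Gfi1cre/+ libraries lie between 39.1 and 41.5.

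Among the perivascular-type genes, Mrc1 (ENSMUSG00000026712, chr2:14229392-14332057, + strand), the mannose receptor, carried most of the reads. It had 1270.1, 1323 and 979.9 normalized reads in Gfi1+/+ and 1076, 1072 and 1182 in Gfi1cre/+. Gfi1+/+ replicates 1 and 2 were the highest of the 6 libraries and Gfi1+/+ replicate 3 the lowest, and the log2 fold change was -0.09 ± 0.107. Leaving out 1 library gave -0.23 (without Gfi1+/+ replicate 3) to -0.0087 (without Gfi1+/+ replicate 2).

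Lyve1 (ENSMUSG00000030787, chr7:110850607-110863239, - strand), a hyaluronan receptor that lymphatic endothelium also makes, had 86.4, 83.8 and 47.5 normalized reads in Gfi1+/+ and 56.6, 51.5 and 62.3 in Gfi1cre/+. As for Mrc1, Gfi1+/+ replicates 1 and 2 were the highest and Gfi1+/+ replicate 3 the lowest, and the log2 fold change was -0.30 ± 0.241. It was -0.58 without Gfi1+/+ replicate 3, -0.15 without replicate 1 and -0.18 without replicate 2 of that genotype. Of 8 markers of lymphatic endothelium, 6 were listed, with a summed level from 2052 to 2485 normalized reads in Gfi1+/+ and from 2090 to 2316 in Gfi1cre/+. The most read of these was Nr2f2, with a mean of 1143 normalized reads over the 6 libraries. Prox1 and Flt4, which are among these markers, had between 101 and 146 and between 157 and 199 normalized reads. In a whole duct, the cells that these reads came from cannot be told. The 5 of these markers that were tested had a median log2 fold change of -0.08, or -0.28 without Gfi1+/+ replicate 3, and their part in the Lyve1 values was not tested.

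Cd163 (ENSMUSG00000008845, chr6:124304656-124330527, + strand), which takes up haptoglobin and haemoglobin, had 55.6, 69.1 and 47.5 normalized reads in Gfi1+/+ and 54.0, 47.9 and 51.0 in Gfi1cre/+. Gfi1+/+ replicate 3 was the lowest here too, though close to Gfi1cre/+ replicate 2. Counting alone gives an SD of 0.198 per library on the log2 scale, so the order of such close values is not settled. The ranges overlapped, and the log2 fold change was -0.15 ± 0.194. Leaving out 1 library gave -0.28 (without Gfi1+/+ replicate 3) to -0.013 (without Gfi1+/+ replicate 2). Over the 6 libraries the ratio of Cd163 to Mrc1 had an SD of 0.114 on the log2 scale, under the 0.202 that counting alone gives, and that of Lyve1 to Mrc1 had an SD of 0.207 against 0.188.

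Cd209f (ENSMUSG00000051906, chr8:4102787-4105835, - strand), a C-type lectin of the CD209 cluster, had 76.5, 62.8 and 80.2 normalized reads in Gfi1+/+ and 39.2, 39.1 and 41.5 in Gfi1cre/+. All 3 Gfi1+/+ libraries were above all 3 Gfi1cre/+ libraries. These values rest on 62, 60 and 76 reads in Gfi1+/+ and on 45, 44 and 44 in Gfi1cre/+. The means were 73.2 ± 9.15 and 39.9 ± 1.39 (SD, n = 3 each), a ratio of 1.83 of Gfi1+/+ to Gfi1cre/+, and the log2 fold change was -0.85 ± 0.177. On the log2 scale the SD was 0.184 in Gfi1+/+ and 0.0485 in Gfi1cre/+, where counting alone gives 0.199. The SD in Gfi1cre/+ thus understates the error of these values. Leaving out any 1 library gave -0.96 to -0.78. Unlike Mrc1, Lyve1 and Cd163, Cd209f was highest in Gfi1+/+ replicate 3. Its ratio to Mrc1 was 0.273, 0.215 and 0.371 in Gfi1+/+ and 0.165, 0.165 and 0.159 in Gfi1cre/+, with an SD of the log2 ratio of 0.493 against 0.203 from counting. Cd209a, Cd209b, Cd209d and Cd209g, other genes of the CD209 family, were written on a list of perivascular-type genes but were not found among the 14865 genes listed.

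Of the 10 genes, 1 had genotypes that did not overlap, where 7.52% of all genes tested did, 4.07% of them lower and 3.45% higher in Gfi1cre/+. An unadjusted p under 0.05 in limma's test was found for 2, Cd209f and Lyz2, where 3.04% of all genes had one, 2.02% lower and 1.02% higher. None passed an adjusted p of 0.05 with limma or edgeR, where 0.0277% of all genes did, or with DESeq2, where 0.0692% did. The genes were chosen on this contrast, so nothing is read from these counts. The log2 fold change was positive in 4 and negative in 6 of the 10, with a median of -0.06, and 5 of the 10 lay within 0.1 of 0. The median over all genes tested was -0.00, with quartiles of -0.06 and 0.05. The 6 general genes had a median of 0.04, with 4 positive and 2 negative, and the 4 perivascular-type genes a median of -0.23, with 4 negative. Leaving out 1 library at a time moved the median of the perivascular-type genes between -0.43 (without Gfi1+/+ replicate 3) and -0.094 (without Gfi1+/+ replicate 2), and that of the general genes between -0.00 and 0.07. Without Gfi1+/+ replicate 1, the library that stood apart, these medians were -0.16 and -0.00.

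**Figure D3:**
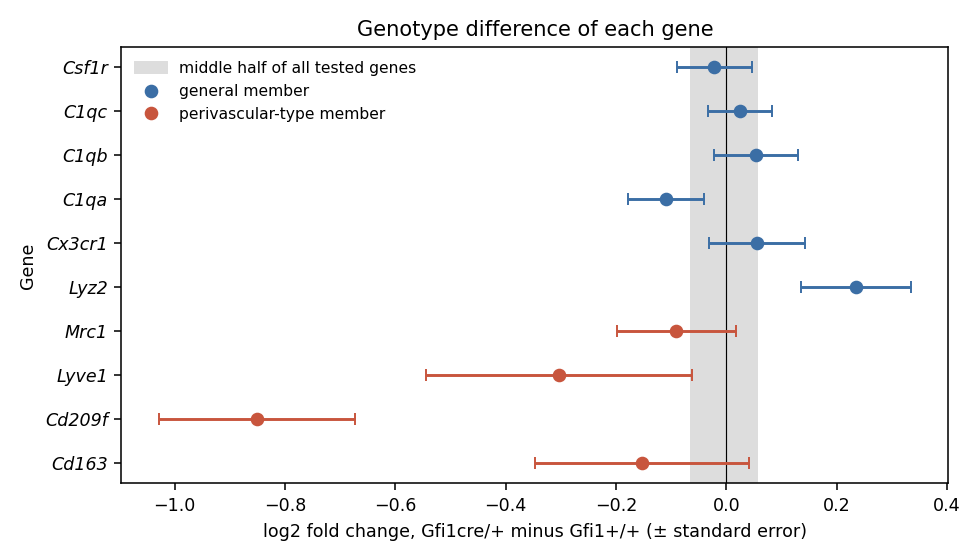
Log2 fold change of each gene, Gfi1cre/+ minus Gfi1+/+, with bars for the SE from limma and a grey band from the lower to the upper quartile of all 14455 genes tested. Cd209f lies at -0.85 and Lyz2 at 0.23, and the bars of 6 genes cross the line at 0.

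The mean deviation of the 4 perivascular-type genes from their gene means, on the log2 scale, came to 0.29, 0.30 and -0.06 in the Gfi1+/+ libraries and to -0.17, -0.25 and -0.10 in the Gfi1cre/+ libraries. Gfi1+/+ replicate 3 thus sat next to the Gfi1cre/+ libraries and not to the other Gfi1+/+ libraries. Without Cd209f, the same mean was 0.22, 0.32 and -0.27 in Gfi1+/+ and -0.08, -0.18 and -0.01 in Gfi1cre/+, which overlap. The 6 general genes deviated less, by -0.10, 0.01 and 0.04 in Gfi1+/+ and -0.04, 0.06 and 0.04 in Gfi1cre/+. The perivascular-type genes took 19.8%, 18.8% and 15.0% of the reads of the 10 genes in Gfi1+/+ and 16.5%, 15.4% and 16.9% in Gfi1cre/+, again with replicates 1 and 2 of Gfi1+/+ highest and replicate 3 lowest. The SD of the log2 values was larger in Gfi1+/+ than in Gfi1cre/+ for 4 of the 4 perivascular-type genes, with a median of 0.25 against 0.08, and for 3 of the 6 general genes, with a median of 0.08 in each genotype. Over all genes tested the median SD was 0.12 in Gfi1+/+, where a library is 1 mouse, and 0.07 in Gfi1cre/+, where it is 3.

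**Figure D4:**
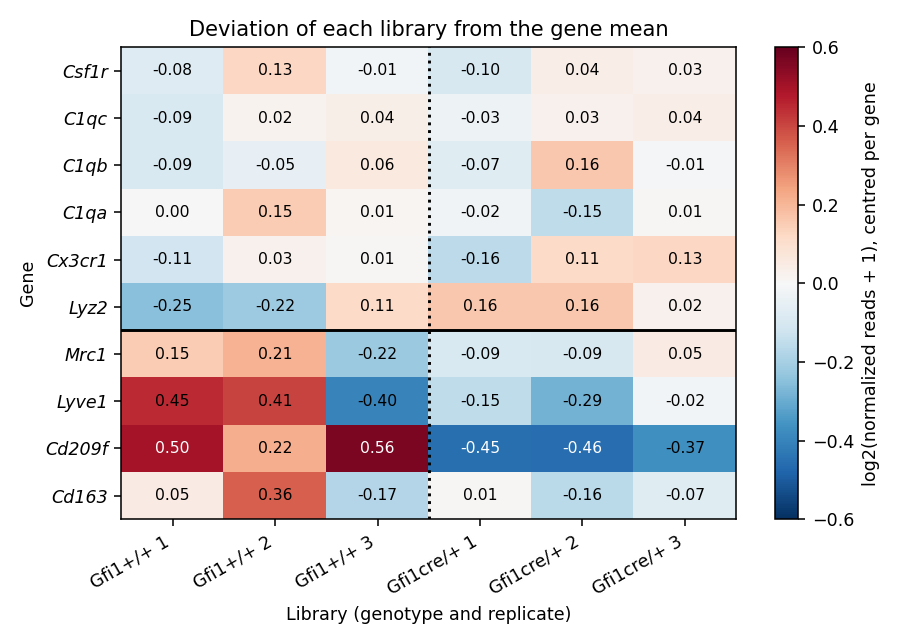
Difference of each library's log2(normalized reads + 1) from the mean of the gene over the 6 libraries, with 1 row per gene, general genes above the line and perivascular-type genes below it. Mrc1, Lyve1 and Cd163 are above their mean in Gfi1+/+ replicates 1 and 2 and below it in replicate 3, and Cd209f is above it in the 3 Gfi1+/+ libraries.

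Markers of neurons, taken as a sum, were highest in Gfi1+/+ replicates 1 and 2 and lowest in Gfi1+/+ replicate 3. Mrc1, Lyve1 and Cd163 shared this pattern of the sum, Cd163 only by differences within counting error, whereas Cd209f was highest in Gfi1+/+ replicate 3. The mean deviation of the neuron markers gave another order. It was 1.42, 0.39 and -0.43 in Gfi1+/+ and -0.77, -0.46 and -0.16 in Gfi1cre/+, with Gfi1cre/+ replicate 1 lowest. All 10 neuron markers written were listed and tested, and 9 had a negative log2 fold change, with a median of -0.99, or -0.55 without Gfi1+/+ replicate 1. Their summed level was 15317, 10284 and 6658 normalized reads in Gfi1+/+ and 7789, 7554 and 8033 in Gfi1cre/+, with Gfi1+/+ replicate 1 highest, replicate 2 next and replicate 3 lowest. None was at 0 in all libraries, and the most read were Scg2, a granin of secretory vesicles, Nefm, a neurofilament, and Tubb3, a tubulin of neurons. With an unadjusted p under 0.05, Snap25, Nefm, Nefh, Stmn2 and Syt1 were lower in Gfi1cre/+, of which Nefm had 1513 ± 1685 normalized reads in Gfi1+/+ and 331 ± 161 in Gfi1cre/+. The genotypes overlapped in all 10 neuron genes, and none passed the adjusted threshold. Over all genes tested, 2.02% were lower with such a p. The count of 5 was 1 without Gfi1+/+ replicate 1, 0 without Gfi1cre/+ replicate 1 and 9 without Gfi1+/+ replicate 3. Over all 14455 genes tested, the count in either direction was 303, 313 and 2340 with the same libraries left out. The part of the amount of neural tissue in a library in the perivascular-type values was not tested.

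Among the genes whose profile over the 6 libraries was most like the mean of the general genes were Xpr1 and Hip1, with root mean square differences of 0.00764 and 0.00876 on the log2 scale among 13498 genes that varied enough to be compared. Those most like the mean of the perivascular-type genes were Ak6, Kcnq3 and Erc2, at 0.0408, 0.0480 and 0.0588 among 3289 genes. Kcnq3, a potassium channel subunit of neurons, had 222, 214 and 177 normalized reads in Gfi1+/+ and 160.1, 156 and 158 in Gfi1cre/+.

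The signals and regulators of macrophages were described next. Of 22 genes written, 16 were listed and 15 tested, and none passed an adjusted or an unadjusted p of 0.05. Their log2 fold changes were positive in 10 and negative in 5, with a median of 0.04. Without Gfi1+/+ replicate 1, 4 were positive and 11 negative, with a median of -0.03. Csf1, a ligand of CSF1R, had 520.5 ± 54.8 normalized reads in Gfi1+/+ and 521 ± 27.6 in Gfi1cre/+, and Il34, the other ligand, had 319 ± 6.00 and 308 ± 25.6. Cx3cl1, which encodes fractalkine, had 1183 ± 172 and 1246 ± 88.5. Thus none of these 3 ligand genes differed beyond the spread between replicates, with log2 fold changes of 0.01 ± 0.0857, -0.05 ± 0.0818 and 0.08 ± 0.101. The regulators of macrophage genes Spi1, Irf8 and Maf had log2 fold changes of 0.14, 0.25 and 0.06, and the genotypes overlapped in each. Spi1, which encodes PU.1, had between 150 and 205 normalized reads. Of the 15 tested, 2 were lower in all Gfi1cre/+ libraries than in any Gfi1+/+ library, where 4.07% of all genes tested were. These were Runx1, a regulator of blood cells, and Il4, a cytokine. Runx1 had 107, 108 and 132 normalized reads in Gfi1+/+ and 79.2, 103 and 106 in Gfi1cre/+, a log2 fold change of -0.27 ± 0.154. Il4 had 43.2, 35.6 and 38.0 against 31.3, 34.6 and 27.4, a log2 fold change of -0.32 ± 0.232. The Il4 values rest on only 35, 34 and 36 reads in Gfi1+/+ and 36, 39 and 29 in Gfi1cre/+. For other listed genes of this group, Cebpa, Id3, Tgfb1, Il10ra, Adam17 and Hmox1, the genotypes overlapped, with log2 fold changes from -0.19 for Hmox1, which breaks down haem, to 0.08 for Tgfb1, and Cebpb was too low to be tested.

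Of the 29 further macrophage genes, all tested, 19 had a positive and 10 a negative log2 fold change, with a median of 0.05, and none passed the adjusted threshold. Without Gfi1cre/+ replicate 2 the median was -0.00, with 14 positive and 15 negative. Coro1a, an actin-binding protein of blood cells, had an unadjusted p under 0.05, where 1.02% of all genes tested were higher with one. It had 215 ± 13.6 normalized reads in Gfi1+/+ and 268 ± 7.19 in Gfi1cre/+, a log2 fold change of 0.32 ± 0.0829, and lymphocytes and granulocytes make it too. The genotypes did not overlap in 2 genes that were higher in Gfi1cre/+, Coro1a and Itgam, an integrin of macrophages and granulocytes, and in 1 that was lower, the lectin Clec4a1. Over all genes tested they did not overlap in 7.52%, with 3.45% higher and 4.07% lower in Gfi1cre/+. Itgam and Clec4a1 were named after their values had been seen.

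Other genes of perivascular macrophages were divided in direction. Of 23 written, 14 were listed and 13 tested, of which 6 had a positive and 7 a negative log2 fold change, with a median of -0.00, and none passed either threshold. The most read were Colec12, a scavenger receptor of vessels, Stab1, another scavenger receptor, and Gas6, a ligand of MERTK, with log2 fold changes of 0.06, -0.00 and 0.02. F13a1, a coagulation factor subunit, Pf4, a platelet chemokine, and Folr2, a folate receptor, were picked after their values had been seen because they resembled Mrc1 over the libraries. F13a1 had 321, 330 and 247 normalized reads in Gfi1+/+ and 242, 252 and 254 in Gfi1cre/+. Pf4 had 333, 299 and 219 against 251, 213 and 252, and Folr2 had 70.4, 58.6 and 49.6 against a mean of 44.5 ± 5.42. In each, Gfi1+/+ replicates 1 and 2 were above the other 4 libraries. Megakaryocytes and platelets also make F13a1 and Pf4. Other genes of the same list went the other way over the Gfi1+/+ libraries, among them Ms4a7, with 159, 185 and 231 normalized reads in Gfi1+/+ and 188, 167 and 174 in Gfi1cre/+, and Siglec1, a sialic acid receptor, with 56.8, 68.1 and 85.4 against 55.7, 79.0 and 64.2.

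Of 9 genes of the microglia type, all listed and 8 tested, 4 had a positive and 4 a negative log2 fold change, with a median of -0.00, and none passed either threshold. Without Gfi1+/+ replicate 3, 1 passed the adjusted threshold, where 48 of all 14455 genes did. P2ry12, an ADP receptor of microglia, had between 94.9 and 122 normalized reads. Sall1 and Tmem119, other genes of this group, are also made by other cells of the ear and of bone, and Siglech was too low to be tested, at between 22.2 and 38.0 normalized reads.

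In the complement system outside C1q, 21 of 27 genes were listed and 19 tested, with 12 positive and 7 negative log2 fold changes, a median of 0.02 (-0.03 without Gfi1+/+ replicate 1) and none past either threshold. C1ra and C1s1, the proteases that bind C1q, had log2 fold changes of -0.18 ± 0.103 and -0.20 ± 0.102. C4b, the substrate of C1s, had 578, 581 and 668 normalized reads in Gfi1+/+ and 662, 766 and 592 in Gfi1cre/+, which overlap. C3, the central component, was too low to be tested, with 8.64, 11.5 and 17.9 normalized reads in Gfi1+/+ and 23.5, 36.4 and 24.5 in Gfi1cre/+. Its genotypes did not overlap, on 7, 11 and 17 reads in Gfi1+/+ and 27, 41 and 26 in Gfi1cre/+. Nor did those of Cd46, also too low to be tested, which was lower in Gfi1cre/+. Of the 19 tested, 2 did not overlap, Calr (higher) and C1ra (lower in Gfi1cre/+), where 7.52% of all genes tested did not. The receptors C3ar1 and C5ar1 overlapped between genotypes, with log2 fold changes of 0.02 and -0.20. The most read genes of this group, Clu, Calr and Lrp1, are made by most cells of the cochlea, and Clu, an extracellular chaperone, had a log2 fold change of 0.00 ± 0.0878. C1ra, C1s1, C4b, C3, Cd46, C3ar1 and C5ar1 were named after their values had been seen.

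**Figure D5:**
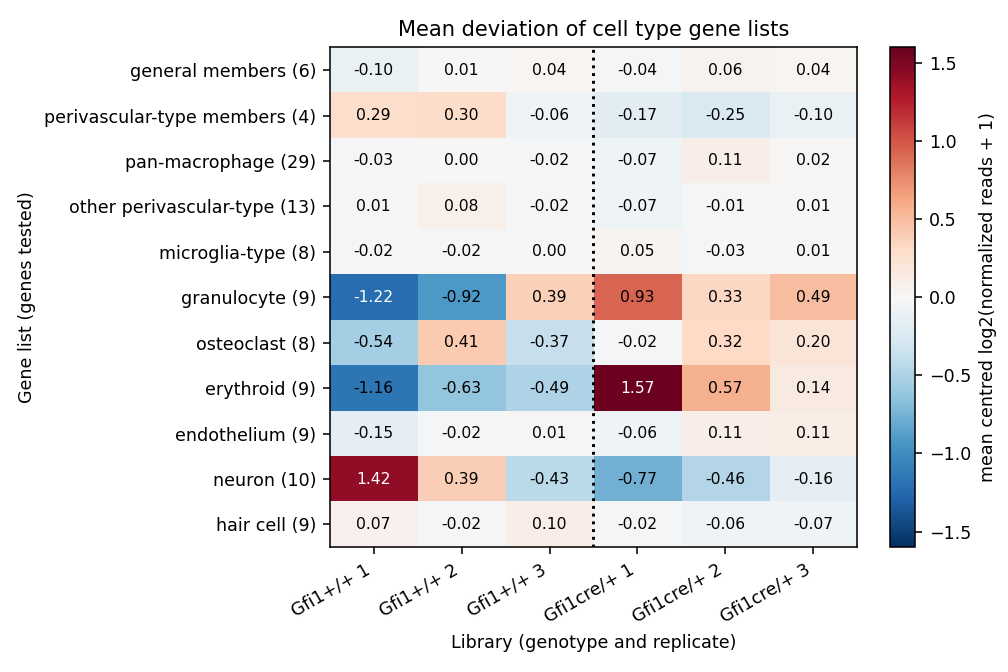
Mean deviation of each gene list in each library from the gene means, on the log2(normalized reads + 1) scale, with the number of genes tested in brackets. The general, pan-macrophage and microglia-type rows stay within 0.11 of 0, and the granulocyte, erythroid and neuron rows run from -1.22 to 1.57.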

How the data were processed

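RNA-seq of 6 cochlear duct libraries was used, 3 of Gfi1+/+ and 3 of Gfi1cre/+ mice, with groups and replicate numbers from the sample labels. Per the study's methods and the submitters' processing notes, the reads were aligned to mm10 with TopHat and counted on genes with HTSeq. The versions, the annotation and the strand setting are not given in the sources used here. The authors deposited a normalized signal for each gene in each library, described as quantile-normalized. The deposited values were, within 0.006, whole reads divided by 1 size factor per library in 100% of cases, and were used as deposited. The number of unused columns was 0.

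The 14455 genes that reached 40 normalized reads in any library were fitted with limma 3.58.1 (R 4.3.3) on log2(normalized reads + 1), with a term for genotype and a mean-variance trend. P-values were two-sided and were adjusted by the Benjamini-Hochberg method across these genes. A fold change on this scale understates the change of genes with few reads. Recovered reads were also tested with edgeR 4.0.16 (quasi-likelihood) and DESeq2 1.42.0. Other alternatives were pseudocounts of 0.1 and 10, no minimum, a mean of at least 200, no trend, median centring, TMM, the replicate number as a block and each library left out. The fit was checked on simulated counts. The series' design text calls the triplicates independent, so p-values measure the spread between animals in Gfi1+/+ and between pools in Gfi1cre/+.

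Positions, exons and transcript lengths came from GENCODE M21 (GRCm38), which matched 14791 of the 14865 identifiers, and promoters from RefSeq. Levels per kb used the longest coding transcript. The genes and the marker lists were chosen with earlier results of these data known, and the lists were written from general knowledge. Beside the 10 genes, the text names the listed ligands and regulators, the genes of each other list with an unadjusted p under 0.05 or among its 3 most read, and the 3 genes nearest each group's profile. Of the genes this rule names, 2 are not reported here.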

Additional observations from a re-analysis of the deposited data

How the results depend on the processing

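The count of 4 genes past the adjusted threshold became 0 when genes under a mean of 200 were left out and 10 with DESeq2, and leaving out 1 library gave 0 (without Gfi1cre/+ replicate 3) to 48 (without Gfi1+/+ replicate 3). The 439 genes with an unadjusted p under 0.05 became 229 with the minimum of 200 and 216 (without Gfi1cre/+ replicate 2) to 2340 (without Gfi1+/+ replicate 3) with a library left out. The 21 marker genes outside the 10 with an unadjusted p under 0.05 became 12 with the minimum of 200 and 9 to 39 with a library left out. Of these marker genes 0 passed the adjusted threshold, against 3 with DESeq2 and 0 to 4 with a library left out. The median log2 fold change of the perivascular-type genes, -0.23, ran from -0.43 to -0.094 with a library left out, and that of the general genes, 0.04, from -0.00 to 0.07. With a mean of at least 200, Cd163, Lyve1 and Cd209f were not tested, so that group had no median. A minimum of 200 leaves fewer genes to test, and the cause of the other changes was not tested. The sign of the log2 fold change changed under 2 of 16 alternatives for Csf1r and 1 each for C1qb and C1qc, and under none tried for the other 7 genes. Same-numbered libraries did not deviate together (correlations of -0.09, 0.11 and -0.03), and with the replicate number as a block 4 genes passed. Cd209f, Cd163 and Lyve1 rest on 331, 326 and 384 reads over the 6 libraries, which limits the differences that can be seen in them.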

Other observations

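Markers of other blood and vessel cells that a whole cochlear duct can hold gave the following values. Of the erythroid genes, all 9 tested had a positive log2 fold change, with a median of 0.64. In 4 the genotypes did not overlap and Gfi1cre/+ was higher, where 3.45% of all genes tested were so. An unadjusted p under 0.05 was found for 8, where 1.02% of all genes tested were higher with one. Without Gfi1cre/+ replicate 1 it was found for 1, where 313 of all 14455 genes had one in either direction. None of the erythroid genes passed the adjusted threshold with limma, against 2 with DESeq2. Their summed level, mostly of the globin genes Hba-a2, Hbb-bs and Hba-a1, ran from 28698 to 42613 normalized reads in Gfi1+/+ and from 37367 to 64520 in Gfi1cre/+. Of 10 endothelial genes 9 were tested, with a median of 0.15 (0.04 without Gfi1+/+ replicate 1). Pecam1 and Tek, a junction protein and the angiopoietin receptor, had an unadjusted p under 0.05, where 1.02% of all genes tested were higher with one. Their log2 fold changes were 0.17 ± 0.0745 and 0.18 ± 0.0689. The part of these blood and vessel cells in the values of the perivascular-type genes was not tested.

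Osteoclast genes, which macrophage-related cells of the bony capsule express, had a median log2 fold change of 0.26 over 8 tested, 7 of them positive. The median was 0.56 without Gfi1+/+ replicate 2, with 8 of 8 positive, and 0.10 without Gfi1+/+ replicate 1. Without Gfi1+/+ replicate 2, 5 of the 8 had an unadjusted p under 0.05, where 547 of all 14455 genes did. The summed level of the osteoclast genes ran from 4363 to 7597 normalized reads in Gfi1+/+, a range that holds that of Gfi1cre/+, 5826 to 7401. Of 13 monocyte genes 5 were listed and 3 tested, with a median of 0.10. Of 15 lymphocyte genes 3 were tested, with a median of -0.06 (from -0.27 without Gfi1+/+ replicate 3 to 0.01 without replicate 2), and Cd4, which macrophages can also express, had 133 ± 22.1 normalized reads in Gfi1+/+ and 99.3 ± 15.3 in Gfi1cre/+ (unadjusted p under 0.05 with limma, not passed after adjustment). The 4 mast cell genes tested had a median of -0.41 and the 9 hair cell genes a median of -0.12, with none past either threshold.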
